A study of Homo sapiens with 18 samples.

Results

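The genes described here are 45 genes of the mitotic spindle and kinetochore, chosen by symbol as the cyclins and kinases that drive mitosis, the spindle checkpoint, the kinetochore, the chromosomal passenger complex, the kinesins and other spindle and cytokinesis proteins, condensin and chromosome structure, the proteins that start anaphase, and the transcription factor FOXM1. On the arrays 44 of the 45 could be named, out of 18132 genes compared in all. PTTG1, which encodes securin, was left out because its single probe set also names the related locus PTTG3P. Each gene was represented by its brightest probe set, judged by the mean signal of the 18 arrays. The arrays came from WiDr and HT29, established human colorectal cancer lines, the first of which is thought to derive from the other. The 6 groups, of 3 arrays each, were WiDr cells given AZ628, WiDr cells given vehicle, HT29 cells given AZ628, HT29 cells given vehicle, WiDr cells carrying a short hairpin RNA (shRNA) against IKKα, and WiDr cells carrying a control shRNA. AZ628 is an inhibitor of RAF kinases, which relay growth signals to MEK and ERK, and IKKα is a kinase of the NF-κB pathway encoded by CHUK. The labels gave no dose or time for AZ628 and did not say whether the shRNA cells were clones or pools. The design text wrote 1 group as HT28, read here as HT29 from the sample labels, and the description of the knockdown arrays named both a control and IKKα, so CHUK was used to check it.

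During mitosis, CDK1 bound to cyclin B triggers chromosome condensation and spindle assembly, kinetochores built on centromeres attach the chromosomes to microtubules, and the spindle checkpoint holds back anaphase until attachment is complete. CDC20 then activates the anaphase promoting complex, cyclin B and securin are destroyed, and separase cuts cohesin so that the chromatids part. Many of these genes are transcribed in G2 and M phase through a promoter element called the cell cycle genes homology region, bound by the MuvB complex with B-MYB and FOXM1, together with CCAAT boxes bound by NF-Y, whereas the genes of DNA replication are mainly driven earlier in the cycle by E2F factors. Dividing epithelial tumour lines express both programmes.

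To show what such promoters look like in the genes described below, stretches from 100 bases before to 20 bases after the start site are printed for 8 members, as given by RefSeq for GRCh38.p14 on the strand of the gene, with matches to TTTGAA or TTCGAA (the homology region) and to CCAAT in capitals on either strand, so that TTCAAA and ATTGG are the same motifs read from the other strand. CCNB2, CDC25C and KIF20A were chosen because their signals changed least or rose with AZ628, SPC25 after its values were seen because it fell most, and CDK1, CCNB1, PLK1 and BUB1 as known examples. The stretches lie at chr10:60778378-60778497 (CDK1, plus strand), chr15:59105046-59105165 (CCNB2, plus), chr5:138331785-138331904 (CDC25C, minus), chr16:23678789-23678908 (PLK1, plus), chr2:110678044-110678163 (BUB1, minus), chr2:168890411-168890530 (SPC25, minus), chr5:138179012-138179131 (KIF20A, plus) and chr5:69167050-69167169 (CCNB1, plus).
CDK1: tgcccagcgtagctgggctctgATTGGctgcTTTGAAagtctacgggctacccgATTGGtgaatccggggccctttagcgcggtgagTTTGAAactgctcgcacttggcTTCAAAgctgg
CCNB2: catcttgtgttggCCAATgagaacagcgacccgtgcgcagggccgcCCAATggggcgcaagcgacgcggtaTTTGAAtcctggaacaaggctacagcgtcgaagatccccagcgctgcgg
CDC25C: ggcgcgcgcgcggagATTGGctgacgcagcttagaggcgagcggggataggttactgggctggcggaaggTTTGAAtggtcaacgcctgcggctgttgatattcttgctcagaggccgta
PLK1: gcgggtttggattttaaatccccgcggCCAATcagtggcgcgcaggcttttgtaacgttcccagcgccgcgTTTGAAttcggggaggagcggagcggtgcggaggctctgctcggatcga
BUB1: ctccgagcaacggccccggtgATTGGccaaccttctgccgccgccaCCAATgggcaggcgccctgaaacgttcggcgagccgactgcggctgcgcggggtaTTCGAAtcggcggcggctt
SPC25: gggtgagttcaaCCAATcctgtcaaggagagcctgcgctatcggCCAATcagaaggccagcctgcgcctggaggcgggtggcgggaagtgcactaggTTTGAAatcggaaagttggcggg
KIF20A: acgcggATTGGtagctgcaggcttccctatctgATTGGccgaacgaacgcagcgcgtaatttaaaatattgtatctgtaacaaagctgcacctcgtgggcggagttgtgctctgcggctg
CCNB1: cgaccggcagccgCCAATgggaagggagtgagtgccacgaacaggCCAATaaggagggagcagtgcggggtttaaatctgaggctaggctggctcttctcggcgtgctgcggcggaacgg

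The homology region lay at nearly the same distance from the start in PLK1 (its first base at position -29), CCNB2 (-29) and CDC25C (-30), whereas it lay at -3 in SPC25, at 2 in BUB1 and at -69, -13 and 10 in CDK1. No match to it was found in the printed stretches of KIF20A and CCNB1, which held 2 CCAAT matches each. Where a gene had several start sites, the stretch with the most matches is shown (CDK1 had 2 windows in the table and CDC25C had 4). The position in CDC25C therefore depends on the start site. In another of its windows the match lay at 44, and others held none. Over the whole windows of 250 bases before to 50 after the start, 38 of the 45 members were in the RefSeq table, and 29 of these (76.3%) held TTTGAA or TTCGAA on either strand, against 19.5% of the 27305 genes in the table. Within the 60 bases before to 50 bases after the start the shares were 68.4% of members (26 genes) and 6.75% of all genes. CCAAT was found in 29 of 38 members (76.3%) and in 39.7% of all genes, and 21 members (55.3%) held both motifs in 1 window, against 7.85% of all genes. The motifs overlapped each other in 2 member windows. Of 33 DNA replication genes in the table, 3 (9.09%) held TTTGAA or TTCGAA and 18 (54.5%) held CCAAT. A match describes letters in the reference sequence and no binding was measured. Only TTTGAA and TTCGAA were searched for the homology region, so the lack of a match does not show that the element is absent.

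The deposited values are log2 signals made with RMA, in which a difference of 1 is a doubling. Correlations over all genes were 0.9971 to 0.9985 between arrays of 1 group and 0.9555 to 0.9963 between groups, and no 2 arrays held identical values. Nothing in the labels says that replicates were grown apart, so the p-values measure only how far the replicate arrays spread, and that spread may be technical. CHUK fell by 2.12 on the log2 scale with the IKKα shRNA (SE 0.12, adjusted p = 4.11e-10, limma), in the direction of its label. With AZ628, CHUK fell by 0.43 in WiDr and 0.37 in HT29 (adjusted p = 0.00854 and 0.0209). Of 10 colon epithelial markers, 8 had a mean signal above that of the median gene (list means 11.05 to 11.44), while CDX1 and CDX2 were low, at the 35.8 and 46.1 percentile. Fibroblast, blood and endothelial marker lists averaged between 4.14 and 5.53 in every group, where the median gene of an array lay at 6.77 to 6.91. Of their genes, CD68 alone lay above the median gene, at the 52.1 percentile, and HBB lay at 46.1.

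With AZ628, the mitotic genes fell almost together in both lines. In WiDr, 40 of 44 were lower and 1 was higher than with vehicle (limma, adjusted p under 0.05 over all genes), with a median log2 difference of -0.52, or 1.44-fold lower. Over all genes 21.1% were called lower and 23.4% higher, around a median of -0.0005. In HT29, 39 of 44 were lower and none was higher, with a median of -0.67, or 1.59-fold lower, where 21.0% of all genes were called lower and 22.5% higher. The falls were mostly moderate, since only 3 genes in WiDr (SPC25, PLK4 and MAD2L1) and 5 in HT29 (those and NCAPH and SPC24) were called and fell at least 2-fold, against 4.35% of all genes in WiDr and 4.0% in HT29. Which genes reached 2-fold depended on the probe set. With the mean of each gene's probe sets the differences were -0.89 for MAD2L1 in WiDr, and -0.68 for NCAPH and -0.54 for SPC24 in HT29. CCNA2 then reached 2-fold in HT29, at -1.01. Arrays of whole cultures do not distinguish fewer cells in mitosis from less RNA per cell.

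Summarised per array as the median over the 44 genes, each relative to its mean over the 18 arrays, the signal was -0.20, -0.23 and -0.28 in AZ628-treated WiDr cells, against 0.32, 0.23 and 0.27 with vehicle. The arrays of AZ628-treated HT29 cells were at -0.45, -0.51 and -0.46, against 0.07, 0.20 and 0.13 with vehicle. The IKKα shRNA arrays were at 0.01, -0.05 and -0.03, against 0.26, 0.25 and 0.24 with the control shRNA. Treated and control arrays did not overlap in any of the 3 comparisons, and the knockdown arrays lay between the inhibited and the control arrays of WiDr. Every array of AZ628-treated cells lay below every vehicle array for 39 members in WiDr and 41 in HT29, where 24.6% and 23.5% of all genes showed this.

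**Figure D1:**
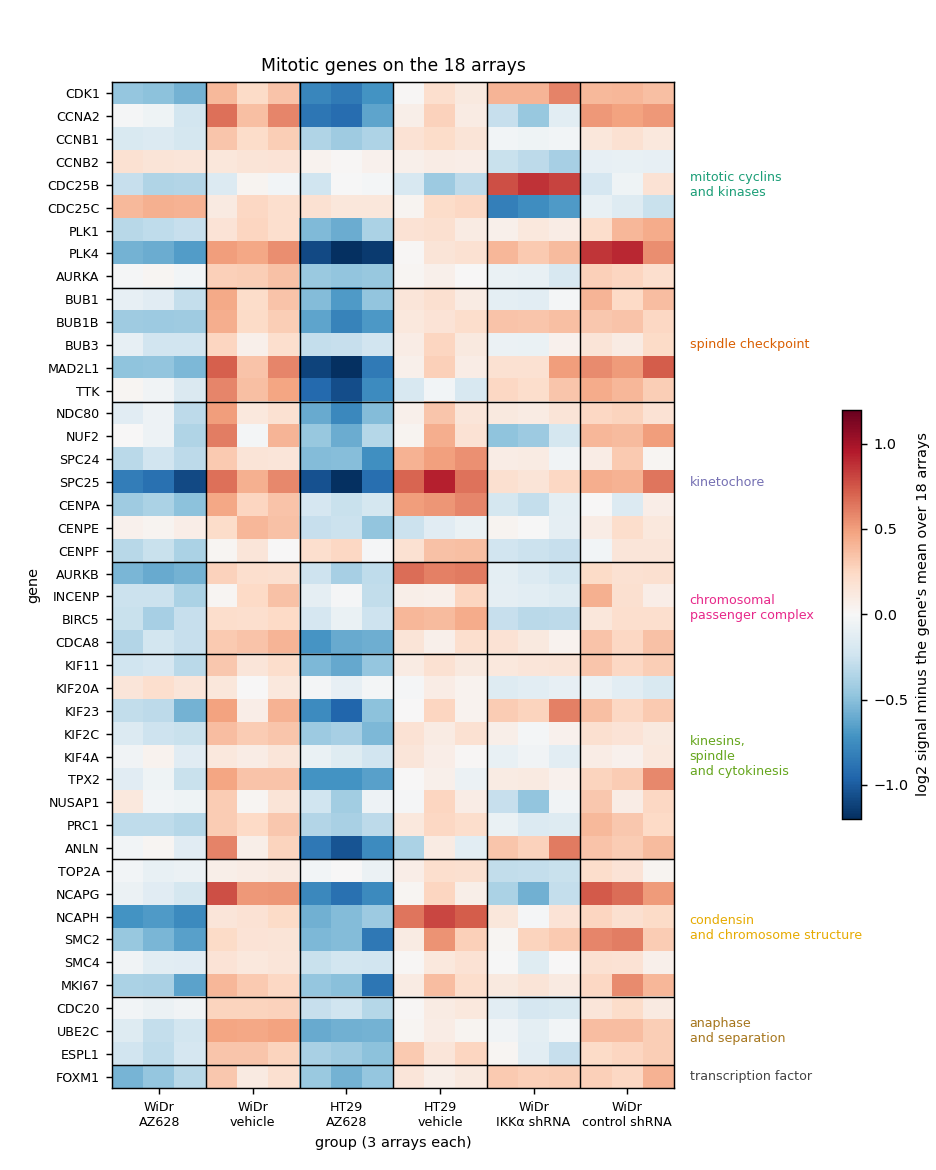
Log2 signal of the 44 mitotic genes (rows, by role) on the 18 arrays (columns, 3 per group), minus the mean of each gene over the 18 arrays; blue is lower and red higher, and the colours saturate at 1.2. Most rows are blue in the AZ628 columns of both lines, while in the IKKα shRNA columns CDC25B is red and CDC25C and NCAPG are blue.

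Of the cyclins and kinases that drive mitosis, 7 of 9 fell and 1 rose with AZ628 in WiDr, and 6 of 9 fell in HT29. Counts by role with AZ628, here and below, stand against 21.1% of all genes called lower and 23.4% higher in WiDr. In HT29 these shares were 21.0% and 22.5%. CDK1, the kinase at the centre of mitotic entry, had log2 signals of 11.02, 10.99 and 10.91 in AZ628-treated WiDr cells, against 11.87, 11.72 and 11.82 with vehicle. In HT29, CDK1 was at 10.70, 10.63 and 10.77 with AZ628, against 11.50, 11.69 and 11.60 with vehicle. The treated arrays lay below all vehicle arrays in both lines, and CDK1 fell by 0.83 in WiDr and 0.90 in HT29 (SE 0.07 each, adjusted p = 9.7e-09 and 4.23e-09). CCNB1, which encodes its partner cyclin B1, had signals of 11.14, 11.16 and 11.11 with AZ628, against 11.65, 11.54 and 11.61 with vehicle in WiDr. In HT29, CCNB1 was at 10.95, 10.89 and 10.95 with AZ628, against 11.49, 11.53 and 11.47 with vehicle. The groups did not overlap, and CCNB1 fell by 0.47 and 0.57 (adjusted p = 1.93e-07 and 1.88e-08).

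CCNB2, encoding cyclin B2, differed from CCNB1. Its signals were 11.49, 11.46 and 11.46 with AZ628 in WiDr, against 11.45, 11.46 and 11.47 with vehicle, and these overlapped. In HT29 they were 11.35, 11.32 and 11.36 with AZ628, against 11.37, 11.40 and 11.38 with vehicle. The log2 differences were 0.01 in WiDr (95% interval -0.09 to 0.11) and -0.04 in HT29 (-0.14 to 0.06), and neither passed (adjusted p = 0.9 and 0.573). The 2 intervals exclude a fall of the size seen for CCNB1. CCNA2, encoding cyclin A2, which acts in S phase and early mitosis, fell by 0.63 in WiDr and 0.95 in HT29 (adjusted p = 3.56e-05 and 2.84e-07).

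CDC25B and CDC25C encode phosphatases that remove the inhibitory phosphates from CDK1. CDC25C had signals of 9.18, 9.21 and 9.21 with AZ628 in WiDr, against 8.90, 9.04 and 8.99 with vehicle. In HT29 it was at 8.97, 8.92 and 8.93 with AZ628, against 8.83, 9.01 and 9.04 with vehicle. CDC25C was the single member called higher with AZ628; its difference in WiDr was 0.22 (SE 0.07, adjusted p = 0.00939), and the call missed the threshold without vehicle-treated WiDr replicate 1 (adjusted p = 0.0506). In HT29 the arrays overlapped and the difference was -0.02 (adjusted p = 0.868). CDC25B had signals of 9.92, 9.84 and 9.84 with AZ628 in WiDr, against 10.03, 10.23 and 10.17 with vehicle. In HT29 CDC25B was at 9.96, 10.19 and 10.17 with AZ628, against 10.01, 9.76 and 9.88 with vehicle. CDC25B fell by 0.28 in WiDr (adjusted p = 0.02), a call that was lost without any 1 of AZ628-treated WiDr replicates 2 and 3 and vehicle-treated WiDr replicates 2 and 3 (adjusted p 0.0567 to 0.0855). In HT29 its difference was 0.22 (adjusted p = 0.0603), and CDC25B was called higher without any 1 of AZ628-treated HT29 replicate 1 and vehicle-treated HT29 replicate 1 (adjusted p 0.0217 to 0.0294).

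PLK4, the kinase that starts centriole duplication, had the largest fall of this group. Its signals were 8.60, 8.57 and 8.49 with AZ628 in WiDr, against 9.66, 9.62 and 9.71 with vehicle. In HT29 they were 8.07, 7.94 and 8.02 with AZ628, against 9.17, 9.31 and 9.35 with vehicle. The groups lay far apart, and PLK4 fell by 1.12 in WiDr and 1.27 in HT29 (SE 0.08 each, adjusted p = 1.66e-09 and 3.78e-10), or 2.17-fold and 2.41-fold. PLK1, a kinase of mitotic entry and spindle assembly, was at 6.78, 6.80 and 6.83 with AZ628 in WiDr, against 7.28, 7.37 and 7.31 with vehicle. In HT29 PLK1 was at 6.58, 6.51 and 6.73 with AZ628, against 7.29, 7.30 and 7.21 with vehicle. PLK1 fell by 0.52 and 0.66 (adjusted p = 3.7e-06 and 2.18e-07) with no overlap of the arrays. AURKA, the aurora kinase of centrosomes and spindle poles, was at 11.59, 11.63 and 11.57 with AZ628 in WiDr, against 11.89, 11.90 and 11.96 with vehicle. In HT29 AURKA was at 11.17, 11.13 and 11.15 with AZ628, against 11.63, 11.66 and 11.61 with vehicle. The arrays were again separate, and AURKA fell by 0.32 and 0.49 (adjusted p = 2.33e-05 and 1.71e-07).

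All 5 genes of the spindle checkpoint fell in both lines. MAD2L1, whose product MAD2 sequesters CDC20 at unattached kinetochores, fell most. Its signals were 11.06, 11.07 and 11.001 with AZ628 in WiDr, against 12.26, 11.88 and 12.13 with vehicle. In HT29 they were 10.44, 10.25 and 10.69 with AZ628, against 11.61, 11.83 and 11.63 with vehicle. MAD2L1 fell by 1.05 in WiDr and 1.23 in HT29 (SE 0.12 each, adjusted p = 6.28e-07 and 9.98e-08), although its 4 probe sets ranged from -1.27 to -0.14 in WiDr and from -1.36 to -0.36 in HT29. BUB1, a checkpoint kinase, was at 9.69, 9.65 and 9.50 with AZ628 in WiDr, against 10.24, 10.003 and 10.13 with vehicle. In HT29 BUB1 was at 9.27, 9.11 and 9.31 with AZ628, against 9.93, 9.98 and 9.88 with vehicle. No treated array reached a vehicle array, and BUB1 fell by 0.52 and 0.70 (adjusted p = 1.52e-05 and 4.42e-07). BUB1B, which encodes the checkpoint protein BUBR1, fell by 0.75 in WiDr and 0.88 in HT29. TTK, the kinase that recruits the checkpoint proteins, fell by 0.54 and 0.78. The smallest falls were those of BUB3, the partner of both BUB proteins, at -0.36 in WiDr and -0.42 in HT29 (adjusted p = 0.000222 and 4.78e-05).

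At the kinetochore, all 7 genes fell in WiDr and 6 of 7 in HT29. SPC25 fell furthest of all 44 genes. Its signals were 8.07, 8.01 and 7.81 with AZ628 in WiDr, against 9.56, 9.32 and 9.47 with vehicle. In HT29 they were 7.85, 7.62 and 7.998 with AZ628, against 9.60, 9.83 and 9.55 with vehicle. More than 1 log2 unit separated the groups, and SPC25 fell by 1.49 in WiDr and 1.84 in HT29 (SE 0.10 each, adjusted p = 1.21e-09 and 9.39e-11), or 2.81-fold and 3.58-fold. SPC25 encodes a subunit of the NDC80 complex, which holds microtubules at the kinetochore, and its 3 partners fell by unequal amounts. NDC80 was at 9.93, 10.001 and 9.75 with AZ628 in WiDr, against 10.56, 10.19 and 10.25 with vehicle. In HT29 NDC80 was at 9.46, 9.30 and 9.55 with AZ628, against 10.13, 10.40 and 10.21 with vehicle. NDC80 fell by 0.44 in WiDr and 0.81 in HT29 (adjusted p = 0.00103 and 1.75e-06) without overlap. SPC24 fell by 0.49 and 1.07 (adjusted p = 5.76e-05 and 4.68e-09). NUF2 fell by 0.47 and 0.68 (adjusted p = 0.0109 and 0.000641), but its WiDr arrays overlapped and the WiDr call was lost without any 1 of AZ628-treated WiDr replicate 3 and vehicle-treated WiDr replicate 1 (adjusted p 0.0682 to 0.0767).

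CENPA, the histone H3 variant that marks the centromere, fell by 0.79 in WiDr and 0.76 in HT29 (adjusted p = 3.2e-08 and 6.05e-08). CENPE, a kinesin that carries chromosomes to the metaphase plate, fell by 0.27 and 0.18 (adjusted p = 0.00406 and 0.0443), and its HT29 call was lost without any 1 of AZ628-treated HT29 replicate 3 and vehicle-treated HT29 replicates 2 and 3 (adjusted p 0.104 to 0.237). CENPF, a large protein of the outer kinetochore, was at 9.17, 9.23 and 9.12 with AZ628 in WiDr, against 9.53, 9.65 and 9.51 with vehicle. In HT29 CENPF was at 9.70, 9.75 and 9.49 with AZ628, against 9.68, 9.85 and 9.87 with vehicle. The HT29 arrays overlapped while the WiDr arrays did not, and CENPF fell by 0.39 in WiDr (adjusted p = 0.000364), with a difference of -0.15 in HT29 that did not pass (adjusted p = 0.122). In HT29, CENPF was called lower without vehicle-treated HT29 replicate 1 (adjusted p = 0.0454).

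The 4 genes of the chromosomal passenger complex, which corrects faulty attachments and later steers cytokinesis, fell in both lines. AURKB, its kinase, had signals of 8.58, 8.53 and 8.57 with AZ628 in WiDr, against 9.41, 9.33 and 9.32 with vehicle. In HT29 AURKB was at 8.89, 8.73 and 8.83 with AZ628, against 9.80, 9.74 and 9.75 with vehicle. No array overlapped, and AURKB fell by 0.80 in WiDr and 0.95 in HT29 (SE 0.05 each, adjusted p = 6.41e-10 and 8.52e-11). CDCA8, which encodes borealin, fell by 0.64 and 0.78. BIRC5, which encodes survivin, fell by 0.53 and 0.58. The scaffold INCENP fell least in HT29, with signals of 7.12, 7.22 and 6.93 with AZ628, against 7.30, 7.29 and 7.49 with vehicle. Its difference was -0.27 there (adjusted p = 0.035), a call lost without any 1 of AZ628-treated HT29 replicates 1 and 3 and vehicle-treated HT29 replicate 3 (adjusted p 0.058 to 0.174), and -0.50 in WiDr (adjusted p = 0.000333).

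Among the kinesins and the spindle and cytokinesis proteins, 7 of 9 fell in WiDr and 8 of 9 in HT29. KIF23, a kinesin of the central spindle, fell most, with signals of 9.19, 9.17 and 8.92 with AZ628 in WiDr, against 9.96, 9.55 and 9.90 with vehicle. In HT29 KIF23 was at 8.72, 8.52 and 8.99 with AZ628, against 9.48, 9.74 and 9.52 with vehicle. KIF23 fell by 0.71 and 0.83 (adjusted p = 0.000141 and 2.98e-05) without overlap. KIF20A, a kinesin that brings the passenger complex to the central spindle, did not follow. Its signals were 9.17, 9.23 and 9.17 with AZ628 in WiDr, against 9.16, 9.03 and 9.15 with vehicle. In HT29 they were 9.0004, 8.93 and 9.01 with AZ628, against 9.01, 9.12 and 9.07 with vehicle. The differences were 0.07 in WiDr (95% interval -0.04 to 0.19) and -0.09 in HT29 (-0.20 to 0.03), and neither passed (adjusted p = 0.318 and 0.235).

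The motor KIF11, which pushes the spindle poles apart, fell by 0.48 in WiDr and 0.67 in HT29 (adjusted p = 1.95e-06 and 3.87e-08). KIF2C, which depolymerises microtubules at centromeres, fell by 0.56 and 0.61. TPX2, the activator of AURKA on the spindle, fell by 0.54 and 0.69. PRC1, which bundles the microtubules of the central spindle, fell by 0.61 and 0.55. These 4 were called in both lines under each array left out. ANLN, the scaffold of the contractile ring, fell by 0.36 in WiDr (adjusted p = 0.0344) and 0.74 in HT29 (adjusted p = 0.000128), but the WiDr call was lost without any 1 of AZ628-treated WiDr replicates 1 and 3 and vehicle-treated WiDr replicates 1 and 3 (adjusted p 0.0551 to 0.209). The chromosome-bound kinesin KIF4A fell by 0.16 in WiDr (adjusted p = 0.032) and 0.23 in HT29 (adjusted p = 0.00368), and the WiDr call was lost without any 1 of AZ628-treated WiDr replicates 1 and 3 and vehicle-treated WiDr replicates 1 and 3 (adjusted p 0.064 to 0.163). NUSAP1, a microtubule-binding spindle protein, had a difference of -0.15 in WiDr that did not pass (adjusted p = 0.356) and fell by 0.35 in HT29 (adjusted p = 0.0211), a call lost without any 1 of AZ628-treated HT29 replicate 2 and vehicle-treated HT29 replicate 2 (adjusted p 0.104 to 0.116).

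All 6 genes of condensin and chromosome structure fell in both lines. NCAPH, a non-SMC subunit of condensin I, had signals of 8.16, 8.20 and 8.12 with AZ628 in WiDr, against 9.03, 9.05 and 9.11 with vehicle. In HT29 NCAPH was at 8.30, 8.36 and 8.44 with AZ628, against 9.52, 9.68 and 9.61 with vehicle. NCAPH fell by 0.90 in WiDr and 1.24 in HT29 (SE 0.06 each, adjusted p = 9.04e-10 and 1.83e-11), while its 3 probe sets ranged from -0.90 to -0.25 and from -1.24 to -0.39. NCAPG, another non-SMC subunit of condensin I, was at 9.71, 9.65 and 9.57 with AZ628 in WiDr, against 10.55, 10.30 and 10.31 with vehicle. In HT29 NCAPG was at 9.01, 8.89 and 9.01 with AZ628, against 9.81, 10.04 and 9.85 with vehicle. NCAPG fell by 0.75 and 0.93 (adjusted p = 1.71e-06 and 1.29e-07). The condensin ATPases fell by different amounts, SMC2 by 0.73 and 0.95 and SMC4 by 0.24 and 0.35.

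MKI67, which encodes the proliferation marker Ki-67 that coats mitotic chromosomes, was at 9.43, 9.42 and 9.16 with AZ628 in WiDr, against 10.20, 10.12 and 10.05 with vehicle. In HT29 MKI67 was at 9.34, 9.31 and 8.93 with AZ628, against 9.90, 10.17 and 10.02 with vehicle. MKI67 fell by 0.79 and 0.84 (adjusted p = 7.29e-06 and 4.02e-06). TOP2A, the topoisomerase that untangles sister chromatids and the other common proliferation marker, moved little. Its signals were 11.86, 11.80 and 11.82 with AZ628 in WiDr, against 11.96, 11.98 and 11.998 with vehicle. In HT29 TOP2A was at 11.86, 11.89 and 11.82 with AZ628, against 11.97, 12.09 and 12.08 with vehicle. The arrays did not overlap, but TOP2A fell by only 0.15 in WiDr and 0.19 in HT29 (adjusted p = 0.0281 and 0.00743). Its WiDr call was lost without any 1 of AZ628-treated WiDr replicates 2 and 3 and vehicle-treated WiDr replicates 2 and 3 (adjusted p 0.0578 to 0.084), and quantile normalization of the values took both calls away (adjusted p = 0.152 in WiDr and 0.114 in HT29).

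The 3 measured genes of anaphase fell in both lines. CDC20, the activator of the anaphase promoting complex, was at 10.88, 10.84 and 10.87 with AZ628 in WiDr, against 11.19, 11.18 and 11.19 with vehicle. In HT29 CDC20 was at 10.64, 10.67 and 10.57 with AZ628, against 10.93, 11.02 and 11.04 with vehicle. CDC20 fell by 0.32 and 0.37 (adjusted p = 3.77e-05 and 8.48e-06), with no overlap. Its 3 probe sets ranged from -0.34 to 0.11 in WiDr, where their mean gave -0.18 (adjusted p = 0.00233). UBE2C, the ubiquitin-conjugating enzyme of that complex, fell by 0.69 and 0.63 (adjusted p = 2.25e-09 and 9.01e-09). ESPL1, which encodes separase, fell by 0.55 and 0.67 (adjusted p = 2.44e-06 and 2.85e-07), although its 2 probe sets had opposite signs in WiDr (-0.55 and 0.09) and with their mean the WiDr difference of -0.23 did not pass (adjusted p = 0.0656). FOXM1, the transcription factor of many genes of this group, was at 8.09, 8.18 and 8.31 with AZ628 in WiDr, against 8.97, 8.76 and 8.84 with vehicle. In HT29 FOXM1 was at 8.20, 8.08 and 8.18 with AZ628, against 8.80, 8.72 and 8.76 with vehicle. FOXM1 fell by 0.66 in WiDr and 0.60 in HT29 (SE 0.07 each, adjusted p = 2.39e-07 and 8.51e-07).

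**Figure D2:**
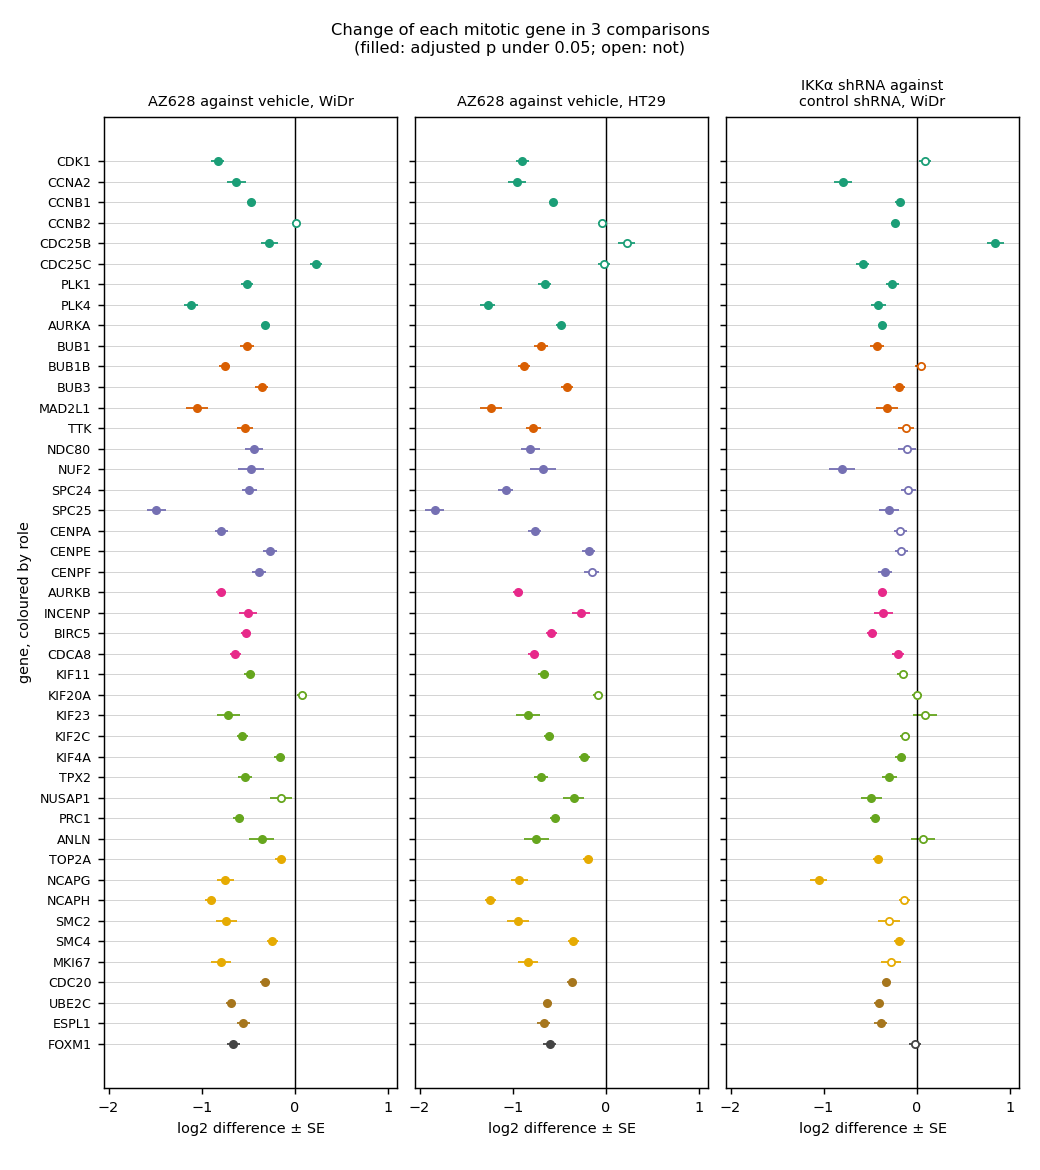
Log2 difference ± SE of each of the 44 genes (rows, coloured by role) with AZ628 against vehicle in WiDr, with AZ628 against vehicle in HT29, and with IKKα shRNA against control shRNA in WiDr; filled points passed an adjusted p of 0.05 and open points did not. In the AZ628 panels CCNB2 and KIF20A sit near 0, CDC25C lies right of 0 in WiDr and SPC25 lies furthest left, whereas in the shRNA panel NCAPG lies furthest left and CDC25B furthest right.

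Fewer of the genes were called lower with the IKKα shRNA. Against the control shRNA, 27 of 44 were lower and 1 was higher, with a median log2 difference of -0.27, or 1.21-fold lower, where 19.0% of all genes were called lower and 15.9% higher around a median of 0.02. Every knockdown array lay below every control array for 33 members, against 23.4% of all genes. All 4 passenger complex genes and all 3 anaphase genes fell, as did 7 of 9 cyclins and kinases, whereas 3 of 5 checkpoint, 3 of 7 kinetochore, 4 of 9 kinesin and spindle and 3 of 6 condensin and chromosome genes fell. NCAPG, NUF2, CCNA2 and CDC25C fell most, and CDK1, BUB1B and FOXM1 did not pass.

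NCAPG was the single member called with a fall of at least 2-fold, where 2.25% of all genes were. Its signals were 9.40, 9.20 and 9.49 with the IKKα shRNA, against 10.51, 10.45 and 10.29 with the control shRNA. The arrays were well separated, and NCAPG fell by 1.05 (SE 0.09, adjusted p = 5.17e-08), although its other probe set gave -0.28. The other condensin I subunit, NCAPH, was at 9.01, 8.87 and 9.04 with the IKKα shRNA, against 9.14, 9.07 and 9.11 with the control shRNA. These arrays did not overlap either, but the difference of -0.13 did not pass (adjusted p = 0.11), whereas the mean of its 3 probe sets fell by 0.31 (adjusted p = 0.00167). SMC4 fell by 0.19 (adjusted p = 0.0178), a call lost without any 1 of control shRNA replicates 1 and 2 and IKKα shRNA replicate 2 (adjusted p 0.066 to 0.106). SMC2 had a difference of -0.30 (adjusted p = 0.0617) and was called lower without any 1 of control shRNA replicate 3 and IKKα shRNA replicate 3 (adjusted p 0.0217 to 0.0494). TOP2A was at 11.59, 11.61 and 11.62 with the IKKα shRNA, against 12.10, 12.06 and 11.93 with the control shRNA. TOP2A fell by 0.42 (adjusted p = 7.22e-06) without overlap. MKI67 was at 9.92, 9.96 and 9.91 with the IKKα shRNA, against 10.06, 10.37 and 10.20 with the control shRNA. Its arrays did not overlap, and its difference of -0.28 just missed the threshold (adjusted p = 0.0548), with 6 probe sets between -0.80 and -0.28. MKI67 was called lower without control shRNA replicate 1 (adjusted p = 0.0287). With the mean of its 6 probe sets MKI67 fell by 0.57 (adjusted p = 0.000145), and it was also called lower with the 33.3% dimmest genes left out, with median centring, with eBayes trend and robust, with only the arrays compared and with a replicate block (adjusted p 0.0311 to 0.0415).

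Of the cyclins and kinases, CDC25B was the single member that rose. Its signals were 10.97, 11.07 and 11.01 with the IKKα shRNA, against 9.99, 10.14 and 10.37 with the control shRNA. The knockdown arrays lay above every other WiDr array, and CDC25B rose by 0.84 (SE 0.09, adjusted p = 9.86e-07), or 1.79-fold. The related phosphatase CDC25C went the other way. CDC25C was at 7.97, 8.04 and 8.10 with the IKKα shRNA, against 8.70, 8.64 and 8.52 with the control shRNA. It fell by 0.58 (adjusted p = 1.49e-06), with the knockdown arrays below all others. CCNA2 was at 10.20, 10.02 and 10.35 with the IKKα shRNA, against 10.998, 10.96 and 11.002 with the control shRNA. CCNA2 fell by 0.79 (adjusted p = 4.66e-06), again without overlap, although its other probe set gave -0.38. CCNB2 was at 11.04, 10.99 and 10.91 with the IKKα shRNA, against 11.21, 11.22 and 11.21 with the control shRNA. CCNB2, which AZ628 left near its vehicle level, fell by 0.24 here (adjusted p = 0.000543).

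CDK1 was at 11.89, 11.89 and 12.07 with the IKKα shRNA, against 11.87, 11.88 and 11.84 with the control shRNA. The knockdown arrays were not lower, and the difference was 0.09 (95% interval -0.06 to 0.23, adjusted p = 0.359). CCNB1 was at 11.29, 11.27 and 11.28 with the IKKα shRNA, against 11.45, 11.50 and 11.44 with the control shRNA. CCNB1 fell by 0.18 (adjusted p = 0.00537) without overlap. PLK1 was at 7.17, 7.23 and 7.19 with the IKKα shRNA, against 7.32, 7.51 and 7.55 with the control shRNA. PLK1 fell by 0.26 (adjusted p = 0.00485). AURKA was at 11.53, 11.52 and 11.42 with the IKKα shRNA, against 11.89, 11.87 and 11.81 with the control shRNA. AURKA fell by 0.37 (adjusted p = 8.52e-06), and its shRNA effect minus its AZ628 effect in WiDr was -0.05 (adjusted p = 0.623). PLK4 fell by 0.41 (adjusted p = 0.00043), but its other probe set gave 0.11 and the mean of both did not pass (-0.15, adjusted p = 0.096).

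At the checkpoint and the kinetochore the genes divided. BUB1 was at 9.67, 9.66 and 9.76 with the IKKα shRNA, against 10.19, 10.02 and 10.15 with the control shRNA. BUB1 fell by 0.43 (adjusted p = 0.000197) without overlap. BUB1B was at 9.89, 9.88 and 9.90 with the IKKα shRNA, against 9.87, 9.89 and 9.79 with the control shRNA, and these overlapped. Its difference was 0.04 (95% interval -0.09 to 0.17, adjusted p = 0.663). TTK had a difference of -0.11 (adjusted p = 0.326). MAD2L1 fell by 0.32 (adjusted p = 0.0459), a call lost without any 1 of control shRNA replicates 1, 2 and 3 and IKKα shRNA replicates 1 and 2 (adjusted p 0.0504 to 0.164). BUB3 fell by 0.19 (adjusted p = 0.033), a call lost without any 1 of control shRNA replicates 1 and 3 and IKKα shRNA replicates 1 and 2 (adjusted p 0.0656 to 0.123).

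Within the NDC80 complex, NUF2 fell most. Its signals were 7.83, 7.89 and 8.11 with the IKKα shRNA, against 8.72, 8.70 and 8.82 with the control shRNA. No array overlapped, and NUF2 fell by 0.80 (SE 0.14, adjusted p = 0.000197). NDC80 was at 10.18, 10.16 and 10.22 with the IKKα shRNA, against 10.32, 10.33 and 10.24 with the control shRNA. NDC80 had a difference of -0.11 (adjusted p = 0.434), and SPC24 of -0.09 (adjusted p = 0.43). SPC25 was at 9.09, 9.06 and 9.15 with the IKKα shRNA, against 9.33, 9.32 and 9.54 with the control shRNA. SPC25 fell by 0.30 (adjusted p = 0.0314), a call lost without any 1 of control shRNA replicate 3 and IKKα shRNA replicates 1 and 2 (adjusted p 0.0749 to 0.143). CENPF was at 9.28, 9.25 and 9.23 with the IKKα shRNA, against 9.47, 9.65 and 9.65 with the control shRNA. CENPF fell by 0.34 (adjusted p = 0.00179). CENPE had a difference of -0.17 and CENPA of -0.18, which did not pass (adjusted p = 0.078 and 0.0576), and CENPA was called lower without any 1 of control shRNA replicate 2 and IKKα shRNA replicate 3 (adjusted p 0.0128 to 0.0353).

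Of the passenger complex, BIRC5 fell most with the IKKα shRNA, with signals of 10.42, 10.37 and 10.38, against 10.83, 10.90 and 10.90 with the control shRNA. BIRC5 fell by 0.48 (SE 0.06, adjusted p = 1.66e-06), although its 12 probe sets ranged from -0.48 to 0.09. AURKB was at 9.02, 8.97 and 8.91 with the IKKα shRNA, against 9.36, 9.32 and 9.32 with the control shRNA. AURKB fell by 0.37 (adjusted p = 2.15e-05) without overlap. INCENP fell by 0.36 (adjusted p = 0.0084), a call lost without control shRNA replicate 1 (adjusted p = 0.0594). CDCA8 fell by 0.20 (adjusted p = 0.0144), a call lost without any 1 of control shRNA replicate 3 and IKKα shRNA replicate 3 (adjusted p 0.0548 to 0.0692).

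Among the spindle and cytokinesis genes, NUSAP1 had signals of 9.92, 9.73 and 10.16 with the IKKα shRNA, against 10.52, 10.29 and 10.45 with the control shRNA. The arrays did not overlap, and NUSAP1 fell most of this group, by 0.49 (adjusted p = 0.00289). PRC1 fell by 0.45 (adjusted p = 3.29e-06) and TPX2 by 0.29 (adjusted p = 0.00591). KIF4A fell by 0.17 (adjusted p = 0.0332), a call lost without any 1 of control shRNA replicates 1 and 3 and IKKα shRNA replicates 1 and 3 (adjusted p 0.073 to 0.102). KIF20A was at 8.87, 8.90 and 8.93 with the IKKα shRNA, against 8.96, 8.90 and 8.84 with the control shRNA, and these overlapped. KIF11, KIF2C, KIF23 and ANLN did not pass, with differences of -0.15, -0.12, 0.08 and 0.07. KIF11 fell by 0.25 with the mean of its 2 probe sets (adjusted p = 0.00163), and KIF11 was called with the 33.3% dimmest genes left out (adjusted p = 0.0298) and with eBayes trend and robust (adjusted p = 0.0309). Of the anaphase genes, CDC20 was at 10.78, 10.71 and 10.74 with the IKKα shRNA, against 11.06, 11.13 and 11.02 with the control shRNA. CDC20 fell by 0.33 (adjusted p = 5.12e-05), and its shRNA effect minus its AZ628 effect was -0.01 (adjusted p = 0.947). UBE2C fell by 0.41 (adjusted p = 3.71e-06) and ESPL1 by 0.39 (adjusted p = 0.00022). The 2 probe sets of ESPL1 again had opposite signs (-0.39 and 0.05), and with their mean the call was lost (-0.17, adjusted p = 0.215). FOXM1 was at 8.96, 8.94 and 8.94 with the IKKα shRNA, against 8.94, 8.90 and 9.06 with the control shRNA. These arrays overlapped, and the difference of FOXM1 was -0.02 (95% interval -0.16 to 0.13, adjusted p = 0.874).

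**Figure D3:**
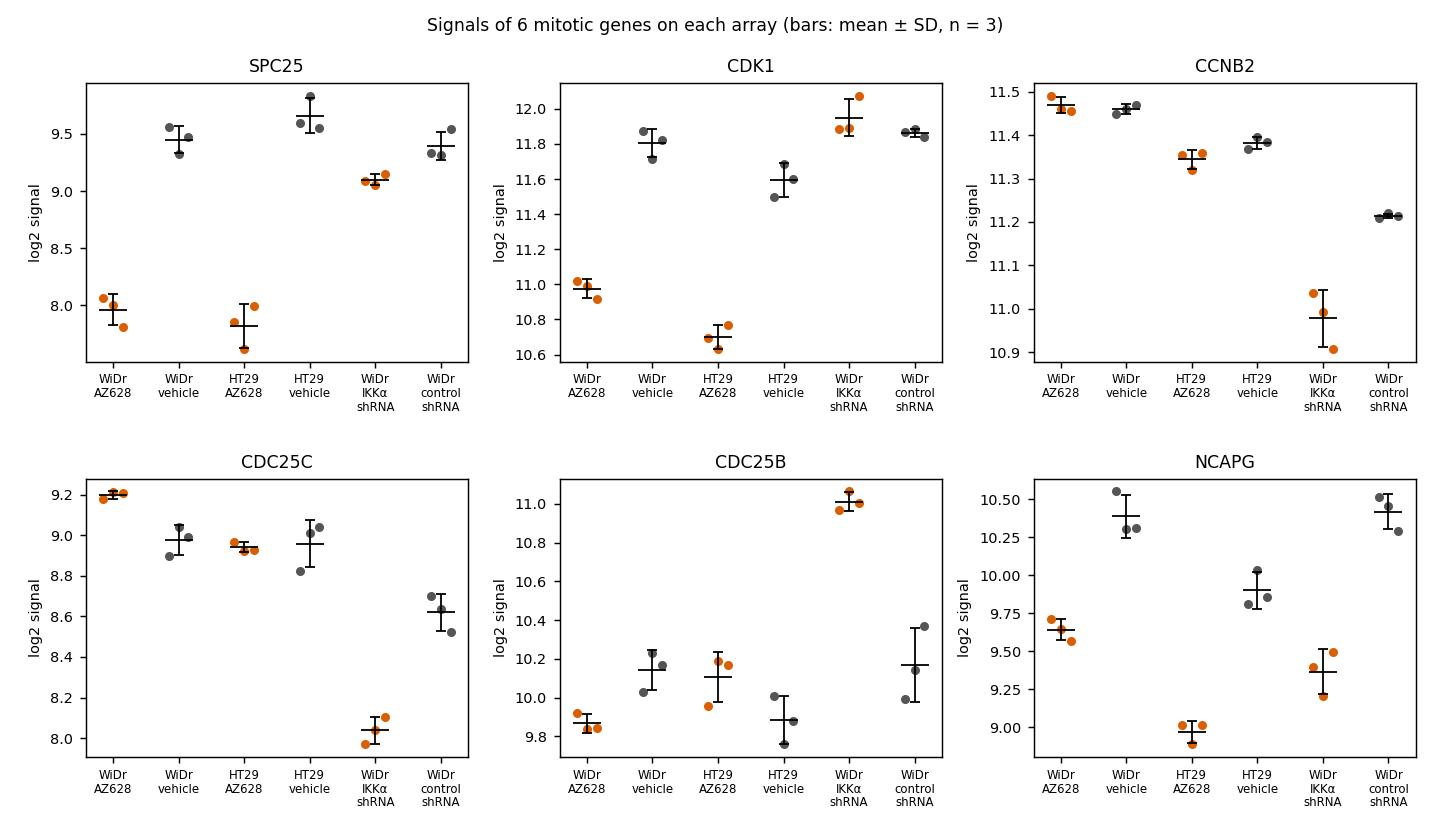
Log2 signal of SPC25, CDK1, CCNB2, CDC25C, CDC25B and NCAPG on each array (points) in the 6 groups, with the mean ± SD of the 3 arrays (black); orange marks AZ628 or IKKα shRNA and grey its control, and each panel has its own axis that does not start at 0. SPC25 and CDK1 are low with AZ628 in both lines, whereas CCNB2 and CDC25C are lowest with the IKKα shRNA, where CDC25B is highest.

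The knockdown was also set against the other WiDr control, vehicle, to see whether the changes rested on the control shRNA. Against vehicle, 28 of 44 were lower and 1 was higher with the IKKα shRNA (median -0.30), where 19.8% of all genes were called lower and 16.4% higher around a median of -0.06. These comparisons share the IKKα shRNA arrays. Against vehicle the differences were -1.02 for NCAPG, -0.94 for CDC25C, -0.82 for CCNA2, -0.71 for NUF2 and 0.87 for CDC25B (adjusted p between 9.52e-08 and 0.000666, CDC25C 5.23e-09). The control shRNA itself differed little from vehicle, with 6 members lower and 1 higher (median -0.01), where 10.6% of all genes were called lower and 11.6% higher around a median of -0.04. The 6 were CENPA (-0.38, adjusted p = 0.00109), CDC25C (-0.36, adjusted p = 0.00123), CCNB2 (-0.25, adjusted p = 0.00146), KIF20A (-0.22, adjusted p = 0.00945), KIF2C (-0.18, adjusted p = 0.027) and CCNB1 (-0.14, adjusted p = 0.0473), and the gene called higher was PLK4 (0.27, adjusted p = 0.0232). With the mean of the probe sets KIF2C (-0.07, adjusted p = 0.276) and PLK4 (0.15, adjusted p = 0.11) did not pass. So CDC25C and CCNB2, which fell with the IKKα shRNA, were also lower with the control shRNA than with vehicle. For CDC25C this difference (-0.36) was smaller than its fall from the control shRNA (-0.58). For CCNB2 they were alike (-0.25 and -0.24). The signals of PLK4 with the IKKα shRNA, 9.56, 9.48 and 9.54, were close to those with vehicle, 9.66, 9.62 and 9.71, and its difference from vehicle was -0.14 (adjusted p = 0.17).

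The AZ628 comparisons in the 2 lines share no arrays, and they ordered the genes alike. Of the 44, 38 were called lower in both lines, 2 in WiDr alone (CDC25B and CENPF), 1 in HT29 alone (NUSAP1) and none in opposite directions. Of all genes, 21.1% were called lower in WiDr and 21.0% in HT29, and the share called lower in both was not counted. Over the 44 genes the log2 differences of the 2 lines had a correlation of 0.889 (Pearson) and 0.844 (Spearman), and over all 18132 genes one of 0.891 (Pearson). Genes are not independent replicates, and the arrays of a group enter every point. The difference was more negative in HT29 for 36 of 44 genes, with a median of -0.13 for the HT29 effect minus the WiDr effect. Over all genes it was more negative in HT29 for 9259 of 18132, around a median of -0.0049. Tested directly, 2 genes had a more negative effect in HT29 and 1 a more positive one, where 5.13% and 4.06% of all genes were called. SPC24 had signals of 7.85, 7.85 and 7.63 with AZ628 in HT29, against 8.78, 8.86 and 8.92 with vehicle. In WiDr, SPC24 was at 8.04, 8.14 and 8.06 with AZ628, against 8.68, 8.52 and 8.51 with vehicle. The HT29 effect minus the WiDr effect was -0.58 for SPC24 (SE 0.11, adjusted p = 0.00282). It was -0.34 for NCAPH (SE 0.09, adjusted p = 0.0197) and 0.50 for CDC25B (SE 0.13, adjusted p = 0.0211). With the mean of each gene's probe sets, neither SPC24 (-0.22, adjusted p = 0.0774) nor NCAPH (-0.21, adjusted p = 0.239) passed. Single arrays also moved these calls: NCAPH was lost without any 1 of AZ628-treated WiDr replicate 2, AZ628-treated HT29 replicate 1 and vehicle-treated HT29 replicate 2 (adjusted p 0.0504 to 0.0588), CDC25B was lost without any 1 of vehicle-treated WiDr replicates 2 and 3, AZ628-treated HT29 replicates 2 and 3 and vehicle-treated HT29 replicate 2 (adjusted p 0.0502 to 0.0576), CDC25C was gained without vehicle-treated HT29 replicate 1 (adjusted p = 0.0421) and NDC80 was gained without vehicle-treated WiDr replicate 1 (adjusted p = 0.0207).

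The AZ628 and IKKα shRNA comparisons in WiDr also share no arrays. Of the 44 genes, 24 were called lower in both, 15 with AZ628 alone, 2 with the IKKα shRNA alone (CCNB2 and NUSAP1) and 1 in neither (KIF20A), while CDC25B was lower with AZ628 and higher with the shRNA and CDC25C was higher with AZ628 and lower with the shRNA. Of all genes, 21.1% were called lower with AZ628 and 19.0% with the shRNA, and the share called lower in both was not counted. In contrast to the pair of AZ628 comparisons, the sizes had no common order, with a correlation of 0.069 (Pearson) and -0.001 (Spearman) over the 44 genes, and of -0.001 (Pearson) over all genes. In the test of the difference, the IKKα shRNA effect minus the AZ628 effect, 3 genes were lower and 21 higher, where 22.3% and 20.1% of all genes were called, with a median of 0.27 over members and 0.04 over all genes. The 3 genes with a lower shRNA effect than AZ628 effect were CDC25C (-0.80, adjusted p = 1.18e-06), TOP2A (-0.27, adjusted p = 0.00893) and CCNB2 (-0.25, adjusted p = 0.00505). Of these, TOP2A fell in both comparisons, CDC25C rose with AZ628 and CCNB2 did not pass with AZ628. The largest positive differences were those of SPC25 (1.19, adjusted p = 2.3e-06), CDC25B (1.12, adjusted p = 1.26e-06) and CDK1 (0.92, adjusted p = 3.14e-07). SPC25 and CDC25B reached 2-fold, as did 5.03% of all genes. BUB1B (0.79), KIF23 (0.80), NCAPH (0.77), MAD2L1 (0.73), PLK4 (0.70), FOXM1 (0.64), CENPA (0.61) and MKI67 (0.51) also differed. So did CDCA8 (0.44), KIF2C (0.44), SMC2 (0.44), AURKB (0.43), TTK (0.42), SPC24 (0.40), KIF11 (0.33), UBE2C (0.28), CCNB1 (0.28) and PLK1 (0.25), with adjusted p up to 0.0435. The call of SMC2 was lost without any 1 of AZ628-treated WiDr replicates 2 and 3, vehicle-treated WiDr replicates 1, 2 and 3, control shRNA replicate 3 and IKKα shRNA replicates 2 and 3 (adjusted p 0.0608 to 0.124). That of PLK1 was lost without any 1 of AZ628-treated WiDr replicates 1 and 2, vehicle-treated WiDr replicates 2 and 3, control shRNA replicate 1 and IKKα shRNA replicates 1, 2 and 3 (adjusted p 0.0502 to 0.116), and with the mean of the probe sets the calls of PLK1 (0.21), CDCA8 (0.29), NCAPH (0.16), MKI67 (0.03) and FOXM1 (0.25) were lost (adjusted p 0.0587 to 0.91). NDC80 gained a call without any 1 of AZ628-treated WiDr replicate 2 and vehicle-treated WiDr replicate 2 (adjusted p 0.0291 to 0.0446). NCAPG gained one, as lower, without any 1 of vehicle-treated WiDr replicate 1, control shRNA replicate 3 and IKKα shRNA replicate 3 (adjusted p 0.0187 to 0.0312). ANLN gained one without vehicle-treated WiDr replicate 2 (adjusted p = 0.0229) and TPX2 without control shRNA replicate 3 (adjusted p = 0.00671).

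**Figure D4:**
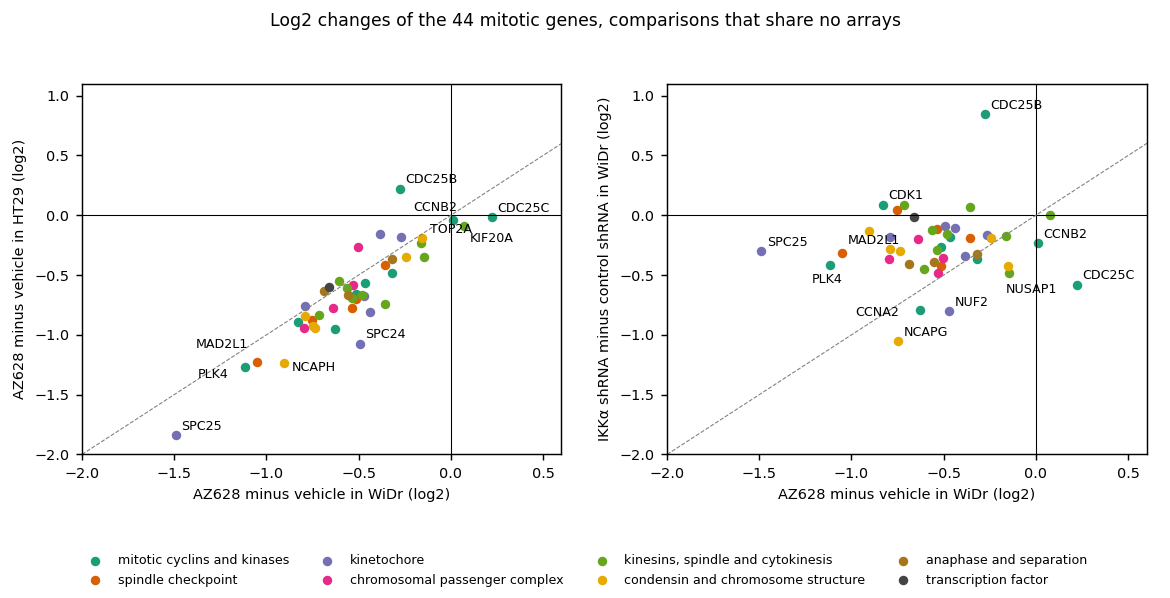
Log2 differences of the 44 genes, coloured by role: AZ628 in HT29 against AZ628 in WiDr (left) and IKKα shRNA against AZ628, both in WiDr (right); the dashed line marks equal change. On the left the points follow the line and lie mostly below it (r = 0.889, n = 44 genes), and on the right they show no common order (r = 0.069), with CDC25B and CDC25C on opposite sides of 0.

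The level of these genes also differed between the lines, in comparisons that use the same arrays as those above. With vehicle, 15 of 44 were lower and 5 higher in HT29 than in WiDr (median -0.10), where 15.3% of all genes were called lower and 16.9% higher. With AZ628, 26 were lower and 4 higher (median -0.23), where 17.2% were called in each direction. TTK had the largest shortfall with vehicle, at 9.05, 9.21 and 9.05 in HT29, against 9.83, 9.60 and 9.72 in WiDr. TTK was 0.61 lower in HT29 with vehicle (adjusted p = 1.41e-05) and 0.85 lower with AZ628 (adjusted p = 2.74e-07). The 5 genes called higher in HT29 with vehicle were NCAPH (0.54), AURKB (0.41), SPC24 (0.28), CENPF (0.24) and BIRC5 (0.19). With AZ628 the genes called higher in HT29 were CENPF (0.47), AURKB (0.26), CENPA (0.21) and NCAPH (0.21). SPC24 was higher in HT29 than in WiDr with vehicle and lower with AZ628 (-0.30, adjusted p = 0.00723), although with the mean of its probe sets the AZ628 value was 0.06 (adjusted p = 0.433). With the same mean NCAPH was no longer called higher with AZ628 (0.07, adjusted p = 0.548), and CENPA was not without _x_at and _s_at probe sets (0.15, adjusted p = 0.298). Leaving out single arrays gave 2 to 5 genes higher with vehicle and 2 to 4 with AZ628.

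Other genes of the same machinery are described next, from lists that do not include the members but were chosen with earlier results of these data known. Their counts stand against the shares of all genes given above, 21.1% lower and 23.4% higher in WiDr and 21.0% and 22.5% in HT29. With AZ628, 23 of 30 other kinetochore and centromere genes fell and 2 rose in WiDr (median -0.79), and 25 fell and none rose in HT29 (median -0.91). CENPK, a subunit of the inner kinetochore, fell by 1.27 in WiDr (adjusted p = 2.04e-09) and 1.29 in HT29 (adjusted p = 1.96e-09), and SKA3, of the complex that tracks microtubule ends, fell by 1.15 in WiDr (adjusted p = 1.93e-09). CENPC, which binds centromeric nucleosomes, rose by 0.35 in WiDr (adjusted p = 0.0102). Of 22 other kinesin, spindle and cytokinesis genes, 16 fell in WiDr (median -0.41) and 20 in HT29 (median -0.56), led by ECT2, the exchange factor that activates RhoA for cytokinesis, at -1.19 in both lines (adjusted p = 5.32e-09 and 6.59e-09). Of 11 other kinases, phosphatases and cyclins, 9 fell in each line (medians -0.78 and -0.96) and 1 rose in HT29. CDC25A, the phosphatase that acts on CDK2 and CDK1, fell by 2.48 in WiDr (adjusted p = 1.39e-14) and 2.60 in HT29 (adjusted p = 1.57e-14), further than any member. Of the related members, CDC25B was called lower in WiDr alone (-0.28) and CDC25C in neither line. Of 4 other condensin subunits, 3 fell in each line (medians -0.55 and -0.73), led by NCAPD3 of condensin II at -1.18 in WiDr (adjusted p = 3.51e-09).

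In the anaphase promoting complex and cohesin, medians lay nearer 0 and the shares called higher were close to or below those of all genes. The shares called lower were still above those of all genes, 21.1% in WiDr and 21.0% in HT29. Of 17 genes of the complex, 7 fell and 3 rose in WiDr (median -0.08) and 6 fell and 2 rose in HT29 (median -0.12). FBXO5, the inhibitor EMI1 of the complex, fell by 1.04 in WiDr (adjusted p = 5.07e-08) and 1.30 in HT29 (adjusted p = 3.26e-09), while the subunit ANAPC16 rose by 0.31 in WiDr (adjusted p = 3.85e-05) and 0.23 in HT29 (adjusted p = 0.00069). Of 13 cohesin genes, 5 fell and 3 rose in WiDr (median -0.10) and 6 fell and 2 rose in HT29 (median -0.19). CDCA5, which encodes sororin, fell by 1.36 in WiDr (adjusted p = 7.89e-12) and 1.46 in HT29 (adjusted p = 4.66e-12), while the cohesin loader NIPBL rose by 0.54 in WiDr (adjusted p = 2.6e-06) and 0.66 in HT29 (adjusted p = 2.77e-07). Of 16 centrosome and centriole genes, 11 fell and 2 rose in WiDr (median -0.65) and 14 fell and 1 rose in HT29 (median -0.59). HAUS7, a subunit of augmin, fell by 2.23 in WiDr (adjusted p = 3.37e-13) and 1.87 in HT29 (adjusted p = 4.66e-12).

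With the IKKα shRNA, 11 of the 30 other kinetochore genes fell and 4 rose (median -0.11), and 14 of the 22 other kinesin and spindle genes fell and none rose (median -0.25), where 19.0% of all genes were called lower and 15.9% higher. The kinetochore subunit MIS12 fell by 0.84 (adjusted p = 4.29e-06) and the checkpoint recruiter ZW10 by 0.74 (adjusted p = 1.03e-08), whereas SKA2 rose by 0.78 (adjusted p = 3.51e-05). DEPDC1 fell by 1.08 (adjusted p = 3.7e-09) and HMMR, a spindle microtubule protein, by 0.83 (adjusted p = 1.77e-07). In the lists of kinases, the anaphase promoting complex, cohesin, centrosome and condensin subunits, 4 of 11, 4 of 17, 5 of 13, 6 of 16 and none of 4 fell, and none, 4, none, 1 and none rose. For the anaphase promoting complex both shares were near those of all genes. The cohesin subunit STAG1 fell by 1.03 (adjusted p = 7.63e-09) and its regulator PDS5B by 0.83 (adjusted p = 1.12e-07), while ANAPC13 rose by 0.48 (adjusted p = 1.23e-06).

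The genes of DNA replication, which act before mitosis, moved in the same direction as the members. With AZ628, 35 of 36 fell in WiDr and all 36 in HT29, where 21.1% and 21.0% of all genes were called lower. Their median log2 differences of -1.35 and -1.51 compare with -0.52 and -0.67 for the 44 mitotic genes. MCM10 had differences of -2.48 in WiDr (adjusted p = 1.43e-13) and -2.88 in HT29 (adjusted p = 4.24e-14), and CDC45, a part of the replicative helicase, one of -2.46 in WiDr (adjusted p = 1.3e-14). With the IKKα shRNA, 21 of 36 fell and 1 rose (median -0.29, against -0.27 for the mitotic genes), with TYMS at -0.91 (adjusted p = 2.03e-08). Of all genes, 19.0% were called lower and 15.9% higher with the shRNA. The levels followed the same groups on every array. The median over replication genes, each relative to its mean over 18 arrays, was -0.80, -0.80 and -0.79 in AZ628-treated WiDr cells, against 0.62, 0.46 and 0.55 with vehicle. Whether the fall of the mitotic genes moved with that of the replication genes within single cells was not measured.

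**Figure D5:**
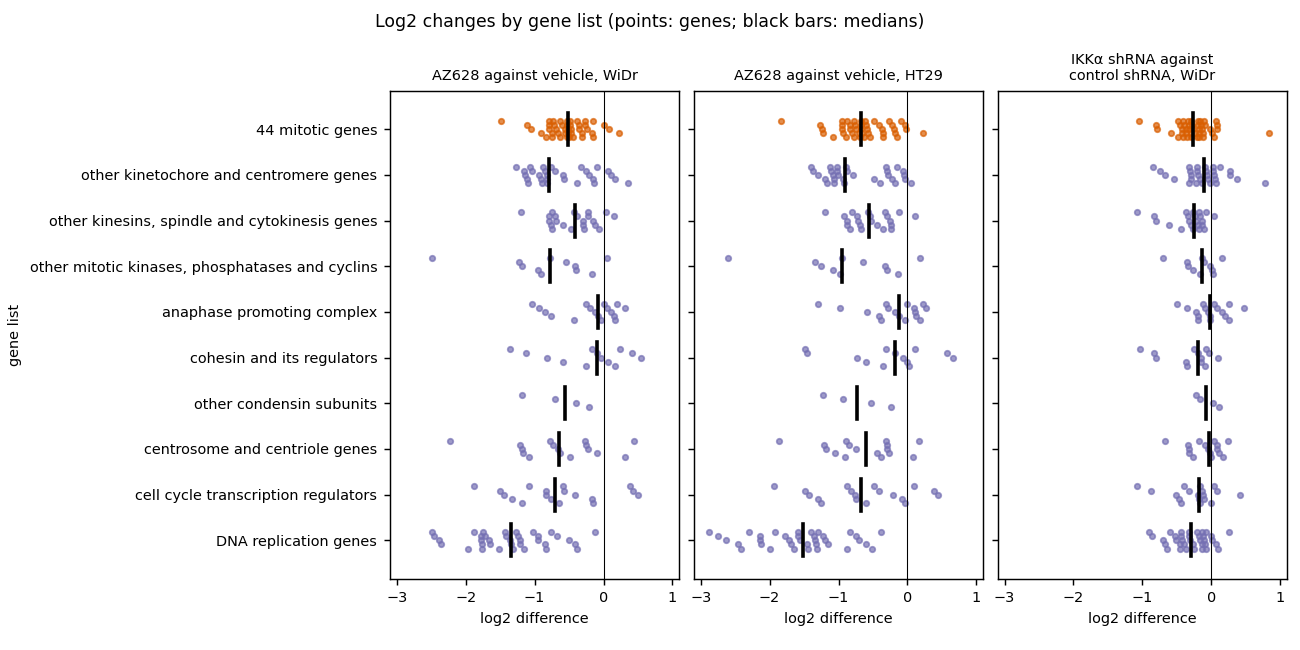
Log2 differences of the 44 mitotic genes and of 9 other gene lists (rows; points are genes and black bars medians) in the 3 comparisons. With AZ628 the DNA replication genes lie furthest left, with medians of -1.35 in WiDr and -1.51 in HT29, against -0.52 and -0.67 for the mitotic genes, and with the IKKα shRNA both medians are near -0.3.

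Of the regulators that read cell cycle promoters, more were called lower with AZ628 than the 21.1% and 21.0% of all genes, and no larger a share was called higher than the 23.4% and 22.5% of all genes. Of 18 measured beside FOXM1, 13 fell and 3 rose with AZ628 in WiDr, 12 fell and 2 rose in HT29, and 6 fell and 1 rose with the IKKα shRNA, where 19.0% of all genes were called lower and 15.9% higher. Of the E2F activators, E2F1 fell by 1.499 in WiDr and 1.48 in HT29 (adjusted p = 1.38e-11 and 2.19e-11), E2F2 by 0.77 and 1.26 (adjusted p = 1.05e-08 and 2.11e-11), and E2F3 by 1.44 and 0.74 (adjusted p = 5.25e-12 and 3.83e-08). With the IKKα shRNA E2F1 did not pass (adjusted p = 0.986), and the differences were -0.46 for E2F2 (adjusted p = 1.14e-05) and 0.08 for E2F3 (adjusted p = 0.406). The repressors E2F7 and E2F8 fell with AZ628, E2F7 by 1.89 and 1.94 (adjusted p = 4.73e-14 and 6.11e-14) and E2F8 by 1.19 and 1.43 (adjusted p = 7.77e-08 and 8.89e-09). They parted with the IKKα shRNA, E2F7 rising by 0.42 (adjusted p = 2.06e-05) and E2F8 falling by 0.87 (adjusted p = 7.41e-06).

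E2F4 and E2F5, partners of the pocket proteins, fell in both lines, E2F4 by 0.83 and 0.48 and E2F5 by 1.32 and 0.82 (adjusted p up to 2.44e-06). With the IKKα shRNA, E2F5 fell by 0.52 (adjusted p = 1.24e-07) and E2F4 had a difference of -0.14 (adjusted p = 0.0914). Of their dimer partners, TFDP1 fell by 0.65 and 0.76 with AZ628, while TFDP2 rose by 0.43 in WiDr and had a difference of -0.03 in HT29 (adjusted p = 0.697). Of the pocket proteins, RBL1 fell by 0.57 and 0.42, RBL2 rose by 0.50 and 0.39 (adjusted p = 0.00277 and 0.0178), and RB1 did not pass in either line (-0.15 and -0.21). RBL2 fell by 0.39 with the IKKα shRNA (adjusted p = 0.0211), where RB1 (-0.32), RBL1 (-0.18), TFDP1 (-0.16) and TFDP2 (0.03) did not pass.

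MYBL2, which encodes B-MYB, had signals of 7.76, 7.70 and 7.70 with AZ628 in WiDr, against 8.80, 8.84 and 8.74 with vehicle. In HT29 MYBL2 was at 7.35, 7.32 and 7.31 with AZ628, against 8.71, 8.61 and 8.56 with vehicle. MYBL2 fell by 1.08 and 1.30 with AZ628 (adjusted p = 5.7e-11 and 6.88e-12) and by 0.44 with the IKKα shRNA (adjusted p = 1.18e-05). LIN54, the MuvB subunit that contacts the homology region, was at 7.12, 6.91 and 7.15 with the IKKα shRNA, against 8.14, 8.05 and 8.22 with the control shRNA. These arrays did not overlap, and LIN54 fell by 1.07 (adjusted p = 1.38e-08), and with AZ628 it fell by 0.59 in WiDr and 0.88 in HT29 (adjusted p = 1.03e-05 and 8.75e-08). Its shRNA effect minus its AZ628 effect in WiDr was -0.49 (adjusted p = 0.00237). Of the other MuvB subunits, LIN9 fell by 0.84 and 0.60 with AZ628, LIN37 rose by 0.39 and 0.45, LIN52 fell by 0.42 in WiDr (-0.08 in HT29, adjusted p = 0.552), and RBBP4 passed in neither line (-0.16 and 0.10). None of these 4 passed with the IKKα shRNA, with differences of -0.18, -0.10, -0.11 and -0.16.

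The changes with AZ628 are set beside the homology region here as a description. The 29 measured members with TTTGAA or TTCGAA in a promoter window had median log2 differences of -0.52 in WiDr and -0.68 in HT29, and the 8 without it -0.53 and -0.78. With the IKKα shRNA the medians were -0.30 with the motif and -0.15 without. For CCAAT they were -0.52 in WiDr, -0.67 in HT29 and -0.29 with the shRNA in the 28 members that held it, and -0.47, -0.74 and -0.17 in the 9 that did not. These medians are descriptions of lists and were not tested. CCNB2 and CDC25C, shown above for their small or positive change, had the homology region at -29 and -30 in the printed stretches. With AZ628 they stayed near or rose above their vehicle level, and PLK1, with the region at -29, fell. KIF20A and CCNB1, both with CCAAT matches and no TTTGAA or TTCGAA in the printed stretch, differed likewise, KIF20A not passing and CCNB1 falling.

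Across the 44 genes the Pearson r of the log2 difference with the mean signal was 0.079 with AZ628 in WiDr, 0.128 in HT29 and 0.014 for the IKKα shRNA. Of the 44, 31 had more than 1 probe set. Their probe sets disagreed in sign for 2 genes with AZ628 in WiDr, for none in HT29 and for 8 with the IKKα shRNA. The widest ranges in WiDr were those of MAD2L1, given above, and CDK1, whose 3 probe sets gave -1.10 to -0.26 with AZ628 in WiDr and -1.13 to -0.18 in HT29. BUB3 gave -0.82 to -0.18 in WiDr and -0.88 to -0.07 in HT29, and the 5 probe sets of SPC24 gave -1.07 to -0.26 in HT29.

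The choice of probe set moved some calls. With the mean of each gene's probe sets, AZ628 in WiDr kept 39 calls and lost those of ESPL1 and KIF4A (-0.08, adjusted p = 0.334). In HT29 it kept 38, lost KIF4A (-0.14, adjusted p = 0.0913) and gained CDC25B as higher (0.22, adjusted p = 0.00289). With the IKKα shRNA it kept 21 calls, lost 7 and gained 5. Beside ESPL1 and PLK4, the lost calls were those of MAD2L1 (-0.15, adjusted p = 0.11), BUB3 (-0.18, adjusted p = 0.0681), CDCA8 (-0.22, adjusted p = 0.0529), SMC4 (-0.23, adjusted p = 0.0503) and KIF4A (-0.12, adjusted p = 0.178). Beside MKI67, KIF11 and NCAPH, the gained calls were those of SMC2 (-0.24, adjusted p = 0.000622) and CENPA (-0.17, adjusted p = 0.0363). Some kept calls moved by over 1.5 times, 5 with AZ628 in WiDr, 5 in HT29 and 3 with the shRNA. In WiDr the means were -0.17 for CDC25B, -0.32 for SPC24, -0.47 for NCAPH, -0.18 for CDC20 and -0.38 for FOXM1. In HT29 they were -0.54 for SPC24, -0.51 for INCENP, -0.68 for NCAPH, -0.37 for ESPL1 and -0.33 for FOXM1. With the shRNA they were -0.23 for INCENP, -0.29 for BIRC5 and -0.66 for NCAPG.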

How the data were processed

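Total RNA was labelled and read on 18 Affymetrix arrays, per the labels' protocols. The authors deposited 1 log2 value per probe set and array; the submitters' processing notes name RMA, limma and R 3.0.2. RMA gives all arrays 1 distribution, so it hides a shift common to most transcripts and understates changes of dim genes. From these values a linear model with 6 group means was fitted to all 18 arrays in R 4.3.3 with limma 3.58.1 (lmFit and eBayes, 12 residual and 4.49 prior degrees of freedom), with two-sided p-values adjusted by Benjamini-Hochberg over the 18132 genes of each contrast and an adjusted p of 0.05 as the threshold. Of 49395 probe sets, 44994 named 1 gene, 1832 several and 2569 none; only the first were used, and the brightest stood for each gene. No filter or count test was applied, and array number limits the precision. The model was tested on simulated data, where it recovered most of the 2-fold changes put in. Changes as small as the member median with the IKKα shRNA were not simulated.

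The 45 members, their roles and the other lists were chosen with earlier results of these data known. All members may be named; values in every array are given for a fixed set and for the members with the largest and smallest difference per role, and for other lists up to 2 called genes per direction and all regulators are named. The gene called CENPJ in the list was matched as CPAP. Same-numbered replicates deviated together no more than others (correlations -0.233 to 0.246 over 21 pairs), so replicate numbers were not used as pairs. Alternatives were a mean over probe sets, no _x_at or _s_at probe sets, the lowest 33.3% of genes left out, repeated quantile normalization, median centring, eBayes with trend and robust, only the arrays compared, a replicate block, a 2-fold minimum and each array left out. Promoters come from the RefSeq table for GRCh38.p14 and were searched in Python 3.11.15; figures were drawn with matplotlib 3.10.9.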

Additional observations from a re-analysis of the deposited data

Results flagged for a closer look

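There were 3 genes that had an AZ628 effect that differed between the lines in a direct test of the difference (limma, 3 arrays per group, adjusted over all genes). For SPC24, of the NDC80 complex, the HT29 effect minus the WiDr effect was -0.58 (SE 0.11, adjusted p = 0.00282), with effects of -1.07 in HT29 and -0.49 in WiDr. For NCAPH, of condensin I, it was -0.34 (SE 0.09, adjusted p = 0.0197), with effects of -1.24 in HT29 and -0.90 in WiDr. For CDC25B, the CDK1-activating phosphatase, it was 0.50 (SE 0.13, adjusted p = 0.0211), with effects of 0.22 in HT29 and -0.28 in WiDr. As given above, the calls of SPC24 and NCAPH were lost with the mean of their probe sets. Those of NCAPH and CDC25B were lost when any 1 of several single arrays was left out. The share of members called was near the share of all genes called lower (5.13%) and higher (4.06%). Groups of 3 arrays were too small for a search for single outlying arrays.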

How the results depend on the processing

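A result counted as unchanged if the gene was called in the same direction before and after the change, or called in neither, whatever its sign. Single genes in the 9 comparisons were unchanged in 343 of 396 results with a mean over probe sets. Under each of the other alternatives that refit the values once, 372 to 392 were unchanged. Of the values called before or after the change, only 2 reversed, both with the mean of probe sets: SPC24 in HT29 against WiDr with AZ628 (0.0607, adjusted p = 0.433) and SMC2 with the IKKα shRNA against vehicle (-0.13, adjusted p = 0.0444). The causes were not tested. Replicate numbers are shared between groups but did not pair the arrays; with a replicate block 392 of 396 results were unchanged, 3 were lost and MKI67 with the IKKα shRNA was gained (-0.28, adjusted p = 0.0323). With the mean of probe sets the member medians moved to -0.47 (AZ628 in WiDr), -0.61 (AZ628 in HT29), -0.23 (IKKα shRNA against control shRNA) and -0.25 (against vehicle), and 1 gene had a more negative AZ628 effect in HT29. With AZ628 in HT29, 1 gene was higher with the mean of probe sets, the 33.3% dimmest genes left out, quantile normalization, or eBayes with trend and robust. With a 2-fold minimum the members called lower and higher were 3 and 0 for AZ628 in WiDr, 5 lower for AZ628 in HT29, 1 and 0 for the IKKα shRNA against control shRNA and 1 and 0 against vehicle, 0 and 2 for the IKKα shRNA effect minus the AZ628 effect, and 0 and 0 for the AZ628 effect between lines, for HT29 against WiDr with vehicle and with AZ628, and for control shRNA against vehicle, which follows from the smaller number of genes that can pass. In the last comparison 2 members were higher with the mean of probe sets, the 33.3% dimmest genes left out or median centring, none (0) was higher and the median was -0.0701 with quantile normalization, and 3 were lower with only the arrays compared. Against vehicle, 2 were higher with the IKKα shRNA under eBayes with trend and robust. Leaving out 1 array at a time gave medians of -0.55 to -0.48 (AZ628 in WiDr), -0.27 to -0.23 (IKKα shRNA), -0.146 to -0.0874 (AZ628 effect between lines) and -0.136 to -0.0765 (HT29 against WiDr with vehicle). Members called higher then numbered 0 to 1 for AZ628 in WiDr and in HT29, 0 to 1 for the AZ628 effect between lines (1 to 3 lower), 2 to 5 and 2 to 4 for HT29 against WiDr with vehicle and AZ628, and 0 to 2 for control shRNA against vehicle, while 3 to 5 were lower in the IKKα shRNA effect minus the AZ628 effect. The number of arrays, 3 a group, limits the precision.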
